A study of Mus musculus with 4 samples.

Results

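The oligoadenylate synthetase (OAS) family was followed through 8 mouse genes, Oas1a, Oas1b, Oas1c, Oas1g, Oas2, Oas3, Oasl1 and Oasl2, out of 55536 annotated genes measured. The members were chosen by gene symbol; each symbol matched 1 gene, and all 8 passed the filter of at least 10 counts summed over the libraries. The samples were bone-marrow-derived macrophages, phagocytes grown in culture from marrow precursors, of C57BL/6J mice. All 4 libraries came from 1 condition: lipid A, the Toll-like receptor 4 ligand of bacterial lipopolysaccharide, was given at 100 ng/ml for 12 h, removed for 12 h and given again at 100 ng/ml for 15 min. Total RNA of the cytosolic fraction, depleted of ribosomal RNA, was sequenced from biological replicates 1 to 4. No untreated cells entered, so no level below is a response to lipid A. The labels name 1 donor record for the 4 libraries and give neither sex nor age, and the p-values below therefore cover no more than the variation among these libraries, part or all of which may be technical.

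OAS enzymes bind double-stranded RNA and then join ATP into short chains of adenylate with an unusual 2′-5′ linkage. These chains serve as a second messenger in the defence against viruses. The genes are classical targets of type I interferon, whose receptor activates transcription factors that bind a DNA element rich in GAAA repeats. In rodents the OAS1 branch has been copied many times, and several copies, like the OAS-like gene Oasl1, are known to make little or no 2′-5′ oligoadenylate.

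All members lie on chromosome 5 (mm10) at 2 places. Oasl2 (chr5:114896936-114912234) and Oasl1 (chr5:114923240-114937915) are neighbours on the plus strand. The other members form a second cluster, in the order Oas2 (chr5:120730333-120749853), Oas3 (chr5:120753098-120777661), Oas1c (chr5:120800194-120812514), Oas1b (chr5:120812635-120824163), Oas1g (chr5:120876142-120887613) and Oas1a (chr5:120896256-120907521). Within it Oas1b alone among the members is on the plus strand, and its start is separated by 120 bases from the start of Oas1c, which is transcribed the other way.

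Promoter sequence (250 bases before to 50 after a start, RefSeq, GRCm38.p6) was found for 6 of the 8 members; Oas1b and Oas2 had no entry. The motif GAAANNGAA, a core of the interferon-stimulated response element, was searched on both strands. The 4 short windows printed here carry this motif, with the 15 bases that the pair of matches covers in capitals. Each is written 5′ to 3′ on the strand of the gene named, and that before Oas1b was taken from the Oas1c entry.

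Oas1a, chr5:120907526-120907575, minus strand: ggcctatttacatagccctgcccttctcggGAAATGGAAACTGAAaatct
Oas1g, chr5:120887614-120887661, minus strand: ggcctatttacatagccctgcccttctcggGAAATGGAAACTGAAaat
Oas1b, chr5:120812583-120812634, plus strand: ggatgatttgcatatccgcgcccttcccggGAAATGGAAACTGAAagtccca
Oas3, chr5:120777690-120777764, minus strand: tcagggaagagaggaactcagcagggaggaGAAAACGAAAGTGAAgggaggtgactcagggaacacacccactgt

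In Oas1a, Oas1g and Oas3, and in the stretch between Oas1c and Oas1b, the motif occurred 2 times on 1 strand with starts 6 bases apart, so that the matches overlapped. Of all 32851 promoters of the same length, 8.56% held the motif at least once and 0.21% held such an overlapping pair. The pair was not part of the planned search, so the 0.21% describes how common it is and tests nothing. The matches began 20 and 14 bases before the start of Oas1a, 18 and 12 before that of Oas1g, and 75 and 69 before that of Oas3. The pair between Oas1c and Oas1b lay in the promoter window of Oas1c, on its opposite strand. Read towards Oas1b, it ended 8 bases before the start of Oas1b, and its 15 letters were the same as in Oas1a and Oas1g. The Oas1a and Oas1g promoters were identical over an unbroken run of 73 bases around the pair. Over 298 aligned bases of the 2 windows, 69.5% were identical. The motif was not in the windows of Oasl1 and Oasl2, nor in those of Oas1f and Oas1h, relatives with almost no counts. A second motif, TTCNNNGAA, a pattern that several STAT factors recognise, was found on both strands (it reads the same on each) in 8.30% of all promoters and, among the members, in the Oas1a window alone, beginning 98 bases before the start.

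Levels are given as TPM, transcript abundance per length scaled to a fixed total per library, and as mean ± SD over the 4 libraries. Every member lay above 1 TPM, 8 of 8, beside 58.2% of the 16262 genes tested (limma on log2(TPM + 0.1), Benjamini-Hochberg adjusted p below 0.05). Among the 12636 protein-coding genes tested the share was 71.2%. The choice of members, made with earlier results of these data known, enters the count of 8. The 4 relatives Oas1d, Oas1e, Oas1f and Oas1h were not members, and 0 of them lay above 1 TPM. Of these relatives 3 had too few counts to be tested, and such genes are left out of both shares. The members covered a wide range, from Oas1c near the middle of the protein-coding genes to Oasl2 among the highest. Adjusted p ran from 1.48e-10 for Oasl2 to 1.87e-07 for Oas1c by limma. In such bulk RNA, fewer cells of a type and less RNA per cell cannot be told apart.

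Oas3 encodes the largest OAS enzyme, built of repeated OAS units and known for its preference for long double-stranded RNA. It measured 146, 124, 141 and 215 TPM in replicates 1 to 4 (157 ± 39.9 (SD, n = 4)), higher than 97.8% of the protein-coding genes tested. Oas2, the enzyme of intermediate size, measured 14.3, 17.8, 17.7 and 26.45 TPM (19.1 ± 5.19 (SD, n = 4)), higher than 80.1% of them. The ranges of these neighbouring genes did not overlap, with Oas3 far the higher.

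Of the small OAS1 enzymes, Oas1a, an active synthetase, led with 113, 83.3, 100.1 and 148 TPM (111 ± 27.7 (SD, n = 4)). Oas1g, its closest relative by sequence, measured 49.0, 38.65, 42.8 and 64.5 TPM (48.7 ± 11.3 (SD, n = 4)). Both are to be read with care, because their transcripts share sequence. Of the 75-base words in Oas1a transcripts 47.6% also occur in Oas1g, and of those in Oas1g 36.9% occur in Oas1a. The expected counts of both genes were fractional in every library, as they are where reads are divided between genes.

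Oas1b measured 7.96, 6.24, 7.42 and 12.5 TPM (8.54 ± 2.75 (SD, n = 4)). It is the mouse gene known for resistance to flaviviruses, whose full-length form is lost in C57BL/6 and most other laboratory strains. Oas1c, one of the copies described as lacking synthetase activity, was the lowest member with 4.49, 3.98, 4.53 and 6.47 TPM (4.87 ± 1.10 (SD, n = 4)). It rested on 391 to 723.93 expected counts per library. Neither shared a 75-base word with Oas1a or Oas1g. The relatives Oas1d, Oas1e, Oas1f and Oas1h had means of at most 0.0475 TPM. Only Oas1h reached 10 counts, and it lay below 1 TPM by limma, while the other relatives were not tested.

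Oasl2, an OAS-like protein with ubiquitin-like repeats that keeps synthetase activity in the mouse, was the highest member. It measured 178, 159, 215 and 248 TPM (200.1 ± 39.4 (SD, n = 4)), above 98.4% of the protein-coding genes tested. Oasl1, which lacks the synthetase activity and is known as a translational repressor of Irf7, measured 125, 97.5, 115 and 238 TPM (144 ± 63.7 (SD, n = 4)). The library of replicate 4 stood well above the other 3 in Oasl1, and the SD is set largely by it. A noncoding gene, Gm13822, overlaps Oasl1 by 38 bases on the opposite strand and measured 2.17 to 7.74 TPM. Whether the libraries keep strand is not given in the sources used here, so reads of the overlap cannot be assigned.

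**Figure D1:**
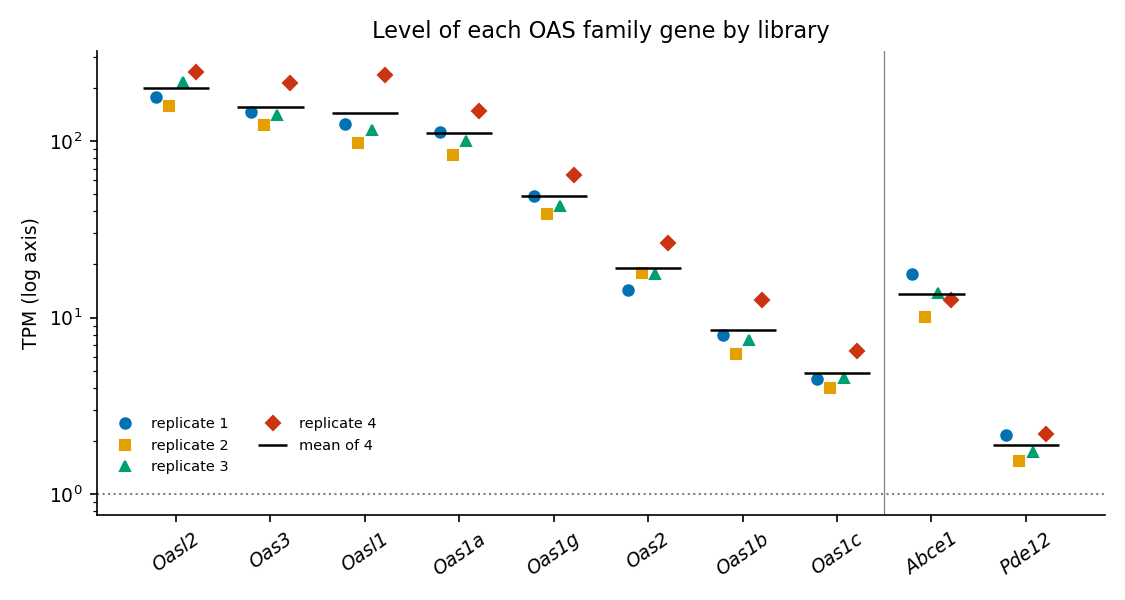
TPM (log axis) of the 8 OAS family genes in order of their mean, with Abce1 and Pde12 to the right of the vertical line; points are the 4 libraries, horizontal bars their mean, and the dotted line 1 TPM. Replicate 4 gave the highest point for every OAS gene, and the means run from 200.1 for Oasl2 to 4.87 for Oas1c.

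The order Oasl2, Oas3, Oasl1, Oas1a, Oas1g, Oas2, Oas1b, Oas1c was that of the means, and replicates 1, 2 and 3 each showed it. In replicate 4 Oasl1 and Oas3 changed places. Within libraries, Oas1a exceeded Oas1g by 1.18 ± 0.05 (SD, n = 4) on the log2 scale of TPM + 0.1, Oas1g exceeded Oas2 by 1.36 ± 0.28 and Oas2 exceeded Oas1b by 1.16 ± 0.28. The difference was 0.77 ± 0.13 between Oas1b and Oas1c, 0.36 ± 0.17 between Oasl2 and Oas3, and 0.32 ± 0.25 between Oasl1 and Oas1a. Between Oas3 and Oasl1 it was 0.18 ± 0.22, with replicate 4 at -0.15, so these neighbours did not differ beyond their spread. Of the 7 neighbouring pairs, 6 had the same order in 4 of 4 libraries, and 4 libraries cannot give an exact two-sided sign-flip permutation p below 0.125. The p adjusted over 7 pairs was 0.146 for those pairs and 0.25 for Oas3 against Oasl1 by the same exact test, so none passed 0.05.

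A list of genes linked to the pathway held Abce1, Pde12, Akap7 and Eif2ak2. Each had a lower mean than Oasl2, Oas3, Oasl1 and Oas1a. Abce1, a ribosome recycling factor, measured 17.7, 10.1, 13.8 and 12.5 TPM in replicates 1 to 4 (13.5 ± 3.17 (SD, n = 4)), between Oas1g and Oas1b in level. Of the phosphodiesterases that degrade 2′-5′ oligoadenylate, Pde12 measured 1.90 ± 0.32 TPM and Akap7 4.75 ± 1.07 (SD, n = 4). Pde12 was higher than 32.9% of the protein-coding genes tested and Akap7 than 49.4%, close to Oas1c. Eif2ak2, which encodes the double-stranded RNA-activated kinase PKR, measured 40.1 ± 7.16 TPM (SD, n = 4). All 4 genes of this list lay above 1 TPM by limma.

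All 8 sensors and relatives and all 9 interferon signalling genes listed were also above 1 TPM by limma. The receptors of double-stranded RNA Ifih1 (MDA5) and Ddx58 (RIG-I) measured 49.9 ± 18.0 and 105 ± 29.0 TPM (SD, n = 4). Of the factors that bind the interferon-stimulated element, Stat2 measured 145 ± 52.1 TPM and Irf9 26.2 ± 4.33 (SD, n = 4). Irf7, an interferon-induced regulator of the interferon genes, measured 804 ± 256 TPM. The median of the member means was 79.97 TPM, beside 36.1 for the signalling genes, 43.3 for the sensors and 200.4 for the 6 genes of the IFIT family, another interferon-induced group. In that family 5 genes lay above 1 TPM and Ifit1bl2 below it.

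The libraries differed in how much of their TPM went to protein-coding genes: 31.7, 25.3, 29.97 and 36.6% in replicates 1 to 4. Replicate 4 was the highest for 8 of 8 members in TPM and in log2 CPM (counts relative to the library total, with TMM factors). It was the highest for 24.5% of the 10989 genes with a mean of at least 50 counts. After rescaling to protein-coding genes it was the highest for 7 members, with replicate 3 highest for Oasl2. In the second quantification as deposited it was the highest for 4, and replicate 1 for the other 4. With the second quantification rescaled to protein-coding genes, replicate 4 was again the highest for 7 members, and replicate 3 for 1. The highest library stood 1.56 to 2.44 times above the lowest across members in TPM, and 1.23 to 1.69 times after rescaling to protein-coding genes. The spread that remained was thus smaller than the deposited TPM show.

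In log2 CPM, replicate 4 exceeded the mean of the other libraries by 0.84 for Oasl1, 0.54 for Oas1b and 0.49 for Oas1c, and by only 0.19 for Oasl2. The median over the members was 0.39, beside 0.56 for the IFIT family, 0.37 for the sensors, 0.23 for the signalling genes and 0.02 for all genes of at least 50 counts. Abce1 went the other way, with replicate 4 at -0.38 and replicate 1 at 0.55. Oas2 differed from its relatives in replicate 1, which lay 0.52 below the mean of the others (-0.52) and was its lowest library in TPM. In TPM replicate 2 was the lowest for the other 7 members, whereas in the second quantification as deposited replicate 3 was the lowest for 8 of 8. After rescaling to protein-coding genes, replicates 1, 2 and 3 were the lowest for 4, 2 and 2 members. In the second quantification rescaled likewise they were the lowest for 5, 2 and 1.

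**Figure D2:**
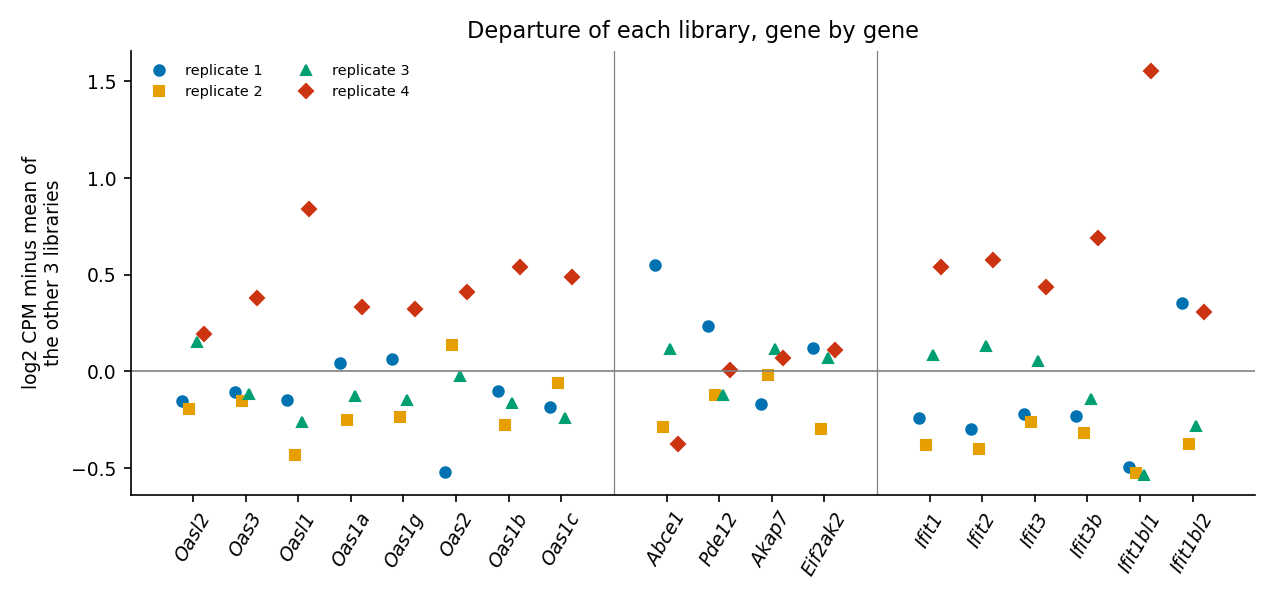
Difference in log2 CPM between each library and the mean of the other 3, for the 8 OAS genes, for Abce1, Pde12, Akap7 and Eif2ak2, and for the IFIT family; colours and shapes are the 4 replicates. Replicate 4 is the top point for 8 of 8 OAS genes, reaching 0.84 for Oasl1, but lies at -0.38 for Abce1.

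The biological coefficient of variation, the spread between replicates beyond counting error by edgeR, had a median of 0.165 over the members and 0.206 over all genes tested. Without replicate 1 these medians were 0.158 and 0.170, and the genes were not matched to the members on count level. The values that follow are from all 4 libraries. The coefficient was 0.236 for Oasl1, higher than in 54.5% of the genes tested. Oas1g (0.146), Oasl2 (0.148) and Oas1a (0.156) had the lowest values among members. The genes whose TPM profile over the 4 libraries was nearest to the mean profile of the 6 members of at least 10 TPM were Pirb, Jun, Sp110, Rftn1 and Gm43802. Their root mean square distances were 0.0093, 0.014, 0.020, 0.023 and 0.030 on the log2 scale, beside a median of 0.204 over 4377 genes. With 4 points from shared libraries this is a description of their likeness only.

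The tables assign each gene's abundance to annotated transcripts, in 2 quantifications, of which the first used reads aligned to the transcriptome and the second the reads themselves. A protein-coding transcript led in 6 of 8 members in the first and in 5 of 8 in the second. Oas1a has 1 annotated transcript. In Oas3 the full-length Oas3-201 took 98.7 ± 0.5% (SD, n = 4) of the gene in the first quantification, and Oasl1-202 took 85.3 ± 4.3% of Oasl1. Oas2-201 took 76.1 ± 3.1% of Oas2, and Oas1c-201 82.7 ± 7.0% of Oas1c.

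Oasl2 was led by a transcript annotated as a target of nonsense-mediated decay, Oasl2-205, in both quantifications. It took 61.4, 57.0, 61.3 and 58.3% of the gene in the first and 49.9, 44.5, 51.3 and 47.5% in the second. The full-length coding Oasl2-201 took 24.1 ± 2.4% and 28.6 ± 2.6% (SD, n = 4). The 4 coding transcripts together took 27.1 ± 2.6% in the first and 44.1 ± 2.5% in the second, where Oasl2-205 took 48.3 ± 3.0%. The lead of the decay transcript over the coding class was thus small in the second quantification. Oasl2-205 lacks exon 2 of Oasl2-201 (chr5:114899742-114900030, 289 bases) and has an annotated stop codon at chr5:114901288-114901290. It has no exonic base that Oasl2-201 lacks, while Oasl2-201 has 1103 bases of its own, so within these 2 transcripts the joint between exons is the only sequence particular to Oasl2-205. The joints are printed to show where the transcripts part, with exon 1 in lower case and the exon that follows in capitals.

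Oasl2-205, exon 1 joined across exon 2: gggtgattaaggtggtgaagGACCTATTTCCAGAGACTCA
Oasl2-201, exon 1 joined to exon 2: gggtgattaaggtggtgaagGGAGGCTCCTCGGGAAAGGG

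Reads over these joints were not analysed here, and the shares are the quantifications' assignments.

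In Oas1g the quantifications disagreed on the leading transcript. The coding Oas1g-201 took 62.9, 57.0, 63.2 and 60.1% in the first and 37.2, 27.5, 35.7 and 32.5% in the second. The decay target Oas1g-203 took 34.7 ± 2.2% and 58.5 ± 3.2% (SD, n = 4) instead. Oas1g-203 extends exon 3 by 61 bases (chr5:120881824-120881884) and carries a stop codon in the extension, at chr5:120881837-120881839. The groups of 4 shares did not overlap between quantifications for either transcript.

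Oas1b was led by Oas1b-203, which the annotation calls a polymorphic pseudogene, with 82.0, 83.2, 83.9 and 83.3% in the first quantification and 62.7 to 73.3% in the second. Oas1b-201, which the annotation calls protein-coding, took 1.13% in replicate 1 and was listed at 0 in the other libraries in the first. The reference is of the same strain as the cells. Its Oas1b-203 sequence opens with ATG and has an in-frame TGA at codon 253 of 377, in exon 4 at chr5:120821308-120821310. The annotated stop codon of Oas1b-201 is this same TGA, so it is not a form that reads past the interruption. The 2 transcripts share 1829 exonic bases, with 3 found only in Oas1b-201 and 8 only in Oas1b-203. The stretch around the stop codon is printed because it carries the interruption, with the codon itself in capitals.

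Oas1b-203, chr5:120821284-120821334, plus strand: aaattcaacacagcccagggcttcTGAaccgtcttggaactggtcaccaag

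The RNA of the interrupted gene was thus measured at 8.54 ± 2.75 TPM (SD, n = 4), and the files hold no protein values.

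**Figure D3:**
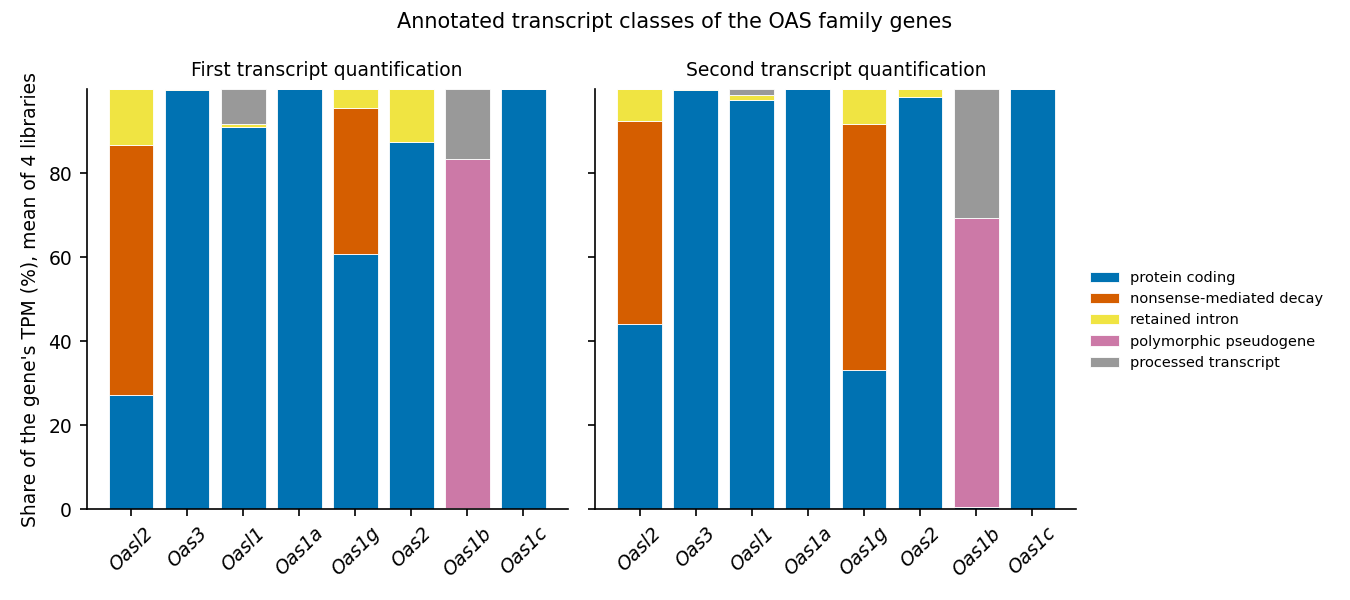
Share of each OAS gene's TPM (%, mean of 4 libraries) by annotated transcript class, in the first (left) and second (right) transcript quantification; bars are stacked from 0 to 100. Oasl2 is led by the decay class in both panels, Oas1g in the second alone, and Oas1b by the polymorphic pseudogene class in both.

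Of the members, 5 have transcripts with a retained intron. Their share was highest in replicate 2 for 4 of the 5 in the first quantification and for 5 of 5 in the second. Oas2 was the exception, with 12.9% in replicate 2 and 13.0% in replicate 4. In Oasl2 the share was 9.49, 19.5, 11.6 and 12.9% in the first quantification and 3.27, 14.6, 5.39 and 7.25% in the second. In Oas1g it was 0.73, 11.3, 2.73 and 3.38% in the first and 1.16, 18.3, 6.22 and 7.48% in the second. Replicate 2 stood above and replicate 1 below the others in both genes. In Oas3 the share stayed under 1% in every library, at 0.082, 0.563, 0.156 and 0.186% in the first quantification.

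The same libraries were highest and lowest outside the family. Over 5942 genes of at least 1 TPM that have such a transcript, the median share in the first quantification was 0.467, 4.20, 1.36 and 1.66% in replicates 1 to 4, and 71.5% of these genes were highest in replicate 2 (82.2% of 5084 genes in the second). The nuclear RNA Malat1 measured 55.7, 719, 416 and 295 TPM, and Neat1 9.62, 41.2, 31.7 and 21.1 TPM. Replicate 2 was thus the highest and replicate 1 the lowest in nuclear RNA as well, in a fraction labelled cytosolic. The part of nuclear RNA in the retained-intron shares was not tested.

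**Figure D4:**
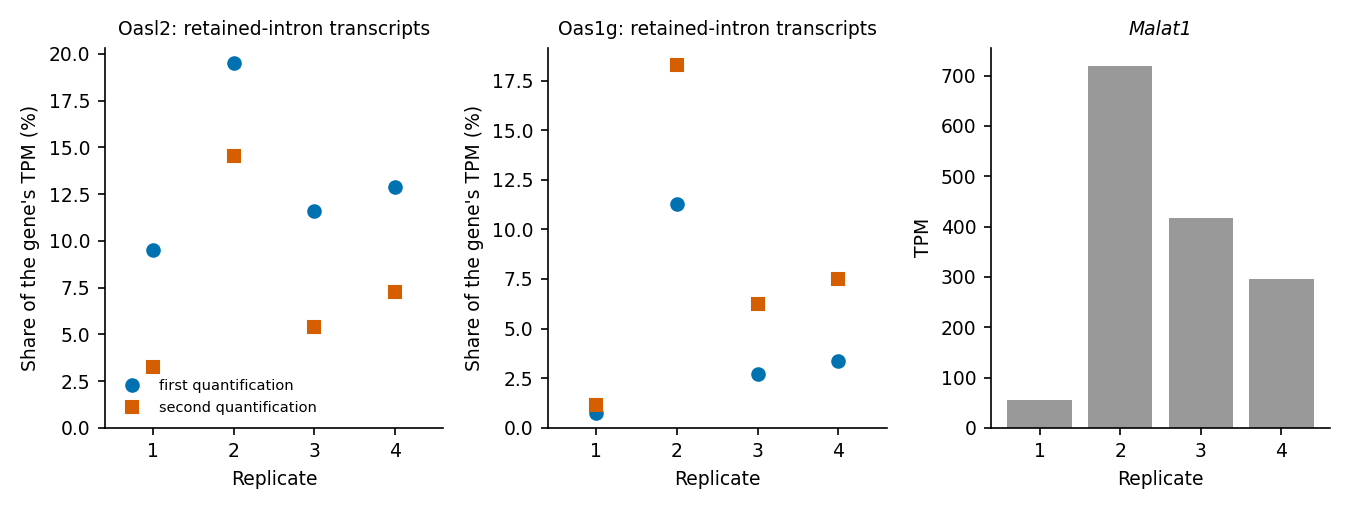
Share of TPM (%) in retained-intron transcripts of Oasl2 and Oas1g in each replicate, in the first (circles) and second (squares) quantification, beside the TPM of Malat1 (bars). Replicate 2 is the highest and replicate 1 the lowest in each panel; Malat1 runs from 55.7 to 719 TPM.

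The 2 quantifications were set side by side at the gene level, because relatives share reads. As deposited, the second gave lower TPM for every member in every library. On the log2 scale of TPM + 0.1 the difference was -1.61 for Oasl1, -1.54 for Oas1a, -1.53 for Oas3, -1.51 for Oas2 and -1.50 for Oasl2. It was -1.30 for Oas1g, -1.24 for Oas1c and -1.18 for Oas1b, beside a median of -1.40 over all 10323 genes tested. The standard error was 0.26 for all 8 members, a value that the fit shared between genes rather than each gene's own. For every member the difference was larger in replicates 3 and 4 than in 1 and 2, as in Oas3 with -1.26, -1.28, -1.78 and -1.79. That shift between libraries enters the standard error and the p-values that follow. By limma's treat test against a log2 difference of 1, 0 of 8 members passed as lower, beside 4.22% of the genes tested, with adjusted p from 0.102 to 0.277. With a pseudocount of 1 in place of 0.1, 4 members passed as lower, beside 12.7% of the 10323 genes tested.

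After both were rescaled to protein-coding genes, the members differed little. Oas1b was 0.26 higher in the second quantification, Oas1c 0.19 and Oas1g 0.16, with standard errors of 0.07, 0.02 and 0.03. The other 5 lay between -0.03 (Oasl2) and -0.15 (Oasl1). Oas1a, which shares the most sequence with Oas1g, was at -0.07, so that the ratio of Oas1a to Oas1g was smaller in the second quantification, 0.95 on the log2 scale. No member passed as lower or higher by limma, beside 0.858% lower and 3.30% higher of 14108 genes.

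**Figure D5:**
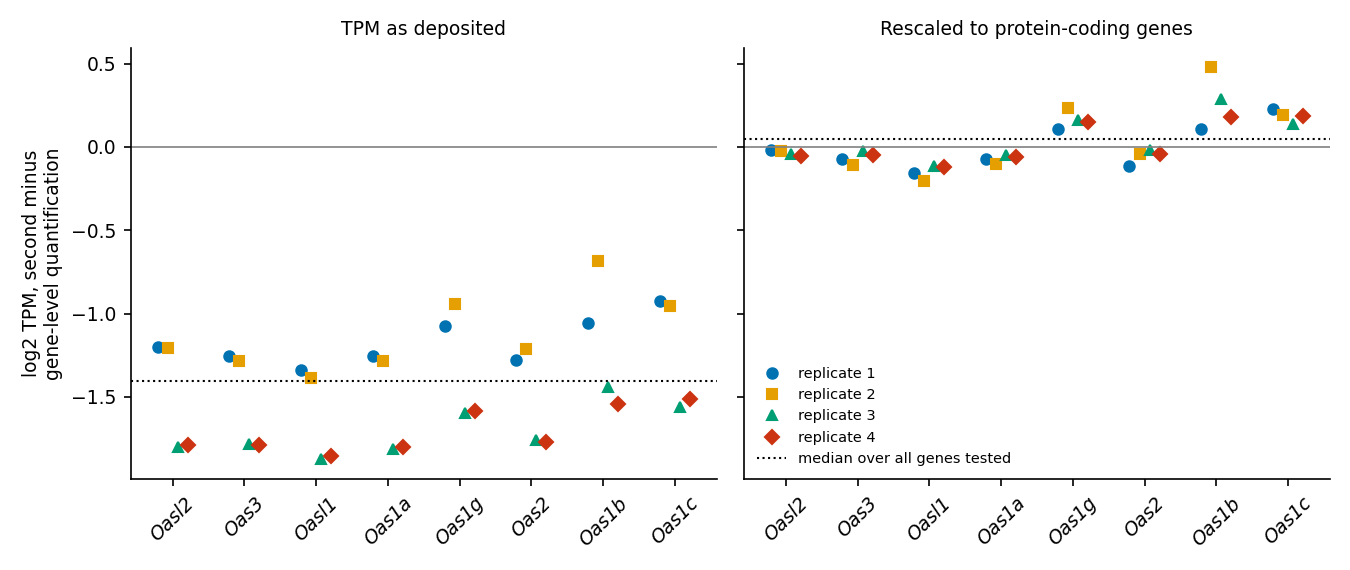
Difference of log2(TPM + 0.1), second minus gene-level quantification, for each OAS gene and replicate, as deposited (left) and after rescaling both to protein-coding genes (right); the dotted line is the median over all genes tested. All members lie below 0 as deposited, and after rescaling Oas1b, Oas1c and Oas1g lie above 0 in all 4 replicates and the other 5 below it.

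The libraries held between 30660511 and 48223718 expected counts. The 8 members together took 0.261, 0.249, 0.253 and 0.319% of the gene counts in replicates 1 to 4. The exact (Clopper-Pearson) 95% interval of the last was 0.317 to 0.321%, and such intervals cover counting error only. The 10 macrophage markers listed were all above 1 TPM by limma, led by Lyz2 and Ctss, with a summed level of 5193 to 7817 TPM. Markers of other cells were near 0: summed levels per library were 0.01 to 0.08 TPM for 4 B cell markers, 0.64 to 1.63 for 5 neutrophil markers, 0.05 to 0.18 for 5 fibroblast markers and 0.01 to 0.13 for 4 mast cell and basophil markers. The 5 T cell markers summed to 8.81 to 18.1 TPM, of which Cd4 had a mean of 15.0 and Cd3e 0.0625. The 4 plasmacytoid dendritic cell markers summed to 2.01 to 4.85 TPM, of which Cox6a2 had a mean of 2.95 and Ccr9 0.0975.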

How the data were processed

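Per the labels, 4 libraries of 1 group were made from rRNA-depleted cytosolic RNA. Per the file headers, the authors deposited expected counts (or estimated counts, in the second transcript table), TPM and posterior mean TPM with interval bounds, for genes and for transcripts, on mm10 with the M21 annotation. Aligner and quantification software: not given in the sources used here. Members, gene lists and tests were chosen with earlier results of these data known. All 55536 gene rows matched the GENCODE annotation; the numbered rows, 96 ERCC rows and 1 phiX row were left out of library sizes and tests (phiX took 0.0238 to 0.383% of the expected counts).

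Genes with at least 10 expected counts in all were tested by limma 3.58.1 (intercept only, variance trend) on log2(TPM + 0.1) against 1 TPM, one-sided each way, with Benjamini-Hochberg adjustment over all genes and calls below 0.05. The quantifications were compared with limma treat (log2 difference of 1) for genes of at least 1 TPM in either. Spread was computed with edgeR 4.0.16 (TMM) on expected counts rounded to whole numbers, with DESeq2 1.42.0 as an alternative. A count of 0 allows up to 3 counts, 0.0623 to 0.0982 CPM by library. Some genes that the lists would hold are not reported here. Named were every member, genes of the lists, the 2 highest markers of each marker list and the 5 genes of at least 10 TPM nearest in profile. No pair of libraries had equal rounded counts in over 54 of 10989 genes. The planned comparison of protein sequences was not made, and words shared between transcripts and retained-intron shares over all genes were added after seeing the data. The count of overlapping motif pairs was not planned either. Fits were tested on simulated data. R 4.3.3 and Python 3.11.15 were used (pandas 2.3.3, numpy 2.4.6, scipy 1.17.1, matplotlib 3.10.9).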

Additional observations from a re-analysis of the deposited data

Results flagged for a closer look

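Among 45 sets of 4 values, 2 had a library whose gap to the nearest other, as a part of the range, exceeded Dixon's 95% critical value, where chance gives about 5% of sets. Oasl1-202 took 78.9% of Oasl1 in replicate 2 in the first quantification, with a gap of 0.862 of the range below the other 3 libraries. Ifit1bl1, of the IFIT family, measured 296 TPM in replicate 4, with a gap of 0.938 of the range above the others.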

How the results depend on the processing

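All 8 members stayed above 1 TPM under every alternative run, and none of the 7 neighbouring pairs turned. The shares of 4 of the 8 leading transcripts moved by over 1 SD in the second quantification. Genes below 1 TPM, 5712 in all, numbered 45184 with no filter on counts (a fit whose variance estimates are unreliable, since most genes are at 0), 3453 after rescaling to protein-coding genes and 2675 in the second quantification rescaled likewise. Genes lower in the second quantification (436) numbered 121 with both rescaled, 1311 with a pseudocount of 1, 17 with no filter on level, and 265 to 519 without 1 replicate, the lowest without replicate 4 and 273 without replicate 3. Genes higher in it (229) numbered 465, 97 and 16 under the first 3 of these, and 4 members were lower with a pseudocount of 1 against 0. The median coefficient of variation of all genes was 0.446 with no filter on counts against 0.206. Pde12 fell to 0.653 TPM in the second quantification as deposited, below the level, and Cgas (1.25) lost its call; Ifit1bl2 rose above it when rescaled, to 1.44, and 1.81 in the second quantification. Without replicate 4, the only library in which Oasl1 exceeded Oas3, 7 of 7 neighbouring pairs kept 1 order against 6. The causes of the other shifts were not tested. Rescaling to protein-coding genes moved the median of all genes by 1.67 (log2). No paired analysis was possible because there is 1 group. Depth limits Oas1c and the relatives most; no untreated cells were analysed here.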

Other observations

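The deposited gene tables give an interval for the TPM of each gene. Of the 32 values of the members (8 genes in 4 libraries), 26 TPM lay inside their interval and 6 above it, while the posterior mean TPM lay inside in 32 of 32. The 6 were Oas1a in replicates 1 and 4 and Oas3 in all 4 libraries; these were named after their values were seen. The width of the interval ran from 1.76 to 32.3% of the posterior mean.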
